A study of Mus musculus with 2 samples.

Results

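Ephrins and their Eph receptors, and semaphorins and their plexin receptors, are the 51 genes described here, out of 32285 genes in the count matrices. They were chosen by symbol: 8 ephrins (Efna and Efnb), 14 Eph receptors (Epha and Ephb), 20 semaphorins of classes 3 to 7 and 9 plexins. Their levels were read from snRNA-seq, the sequencing of RNA from single nuclei, in the hippocampus of mice with tauopathy, with and without ZBP1, a sensor of Z-form DNA and RNA. One library came from PS19 mice (PS19+/- *Zbp1*+/+) and one from PZKO mice (PS19+/- *Zbp1*-/-), all males aged 9 months, with the hippocampi of 5 males pooled per library. Both groups carry the PS19 transgene, a human tau with the P301S mutation driven by the mouse prion promoter, so there is no group free of tauopathy. The comparison asks what the loss of *Zbp1* is accompanied by within each kind of neuron and glial cell.

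Ephrins are membrane-bound ligands that meet Eph receptor tyrosine kinases on a neighbouring cell, and both partners can signal into the cell that carries them. Ephrin-A ligands are anchored by a lipid and mostly bind EphA receptors, while ephrin-B ligands span the membrane and mostly bind EphB receptors and EphA4. Semaphorins are secreted or membrane-bound cues read by plexins, with neuropilins as co-receptors for most secreted class 3 members. In the hippocampus these families are known from axon guidance, from the layering of mossy fibres and from the shaping of dendritic spines, and some of them also act in blood vessels and in myelinating cells.

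After filters on nuclei and removal of doublets, 9590 PS19 nuclei and 9307 PZKO nuclei were kept, with medians of 5850 and 9015 unique molecular identifiers (UMIs) per nucleus. They formed 31 clusters, and clusters that received the same name were joined into a class. Of the classes, 23 had at least 50 nuclei in each library and were used, with 57 to 2570 PS19 nuclei and 56 to 2251 PZKO nuclei per class. A class called granule-like, CA1-like, CA3-like or by the name of a glial cell was led by the markers of that cell, and excitatory clusters without such a lead are called by 2 of their leading genes, as in the *Cdh18*/*Foxp2* excitatory cluster. Levels are UMIs of a gene summed over the nuclei of a class and scaled by the total of that class, in CPM, with exact Poisson intervals, and ratios are given as log2 of PZKO over PS19 with exact binomial (Clopper-Pearson) intervals. Each genotype has 1 library, so replicates and tests are lacking, and these 95% intervals cover counting error only. For *Zbp1* itself, 92 UMIs were counted in PS19 (0.913 CPM) and 38 in PZKO (0.250 CPM), with −1.87 as their log2 ratio (−2.45 to −1.31). The libraries shared 47 nucleus barcodes, and the median UMI count per nucleus was higher in PZKO in all 23 classes. Ambient RNA was not removed from the deposited counts, and its share of UMIs was estimated from markers of unrelated cells at 7.18% to 33.9% per class. The ambient profile used for this, and for its subtraction below, was the sum of all deposited barcodes of a library. It was not read from empty droplets, so these shares are not a direct measure of ambient RNA.

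Of the 51 genes, 39 had at least 100 UMIs in at least 1 class in each library, and levels are given for these. They were 3 of 5 ephrin-A genes, 2 of 3 ephrin-B genes, 6 of 9 EphA genes, 4 of 5 EphB genes, 4 of 7 class 3, 5 of 6 class 4, 2 of 2 class 5 and 4 of 4 class 6 semaphorins, *Sema7a*, and 8 of 9 plexins. The other 12 were *Efna2*, *Efna4*, *Efnb1*, *Epha1*, *Epha2*, *Epha8*, *Ephb3*, *Plxna3*, *Sema3b*, *Sema3f*, *Sema3g* and *Sema4c*. Their UMIs summed over the classes used reached from 19 for *Epha2* to 485 for *Sema4c* in PS19, and from 26 for *Epha2* to 770 for *Ephb3* in PZKO.

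The promoters of 4 of the genes are shown because these genes stood among the 10 genes that lead a class by fold: *Epha6* in CA1-like neurons, *Sema5a* in granule-like neurons, *Sema5b* in the *Vwc2l*/*Kcnh8* excitatory cluster and *Sema3d* in oligodendrocyte precursor cells. Each sequence holds the 250 bases before the RefSeq start of the gene in GRCm38.p6, read 5′ to 3′ on the strand of the gene. Capitals mark the E-box CANNTG, the letters that basic helix-loop-helix factors such as the neurogenic Neurod proteins bind, and a match on one strand is also a match on the other.
*Epha6* (chr16:60605532-60605781, minus strand): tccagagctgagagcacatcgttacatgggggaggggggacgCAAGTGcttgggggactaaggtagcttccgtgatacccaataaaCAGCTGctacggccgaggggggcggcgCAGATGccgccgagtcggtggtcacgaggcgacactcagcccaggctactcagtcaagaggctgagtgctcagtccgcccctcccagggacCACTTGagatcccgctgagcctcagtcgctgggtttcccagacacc
*Sema5a* (chr15:32244563-32244812, plus strand): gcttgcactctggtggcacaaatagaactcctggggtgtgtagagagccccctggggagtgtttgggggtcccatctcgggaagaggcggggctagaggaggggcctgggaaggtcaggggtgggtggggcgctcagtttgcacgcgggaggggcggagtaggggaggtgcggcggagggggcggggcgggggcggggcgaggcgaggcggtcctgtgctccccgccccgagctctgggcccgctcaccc
*Sema5b* (chr16:35541112-35541361, plus strand): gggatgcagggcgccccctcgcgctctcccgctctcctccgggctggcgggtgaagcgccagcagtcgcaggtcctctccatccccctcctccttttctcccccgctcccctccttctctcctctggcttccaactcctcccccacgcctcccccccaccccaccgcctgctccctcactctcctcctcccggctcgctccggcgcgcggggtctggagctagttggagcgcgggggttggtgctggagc
*Sema3d* (chr5:12382916-12383165, plus strand): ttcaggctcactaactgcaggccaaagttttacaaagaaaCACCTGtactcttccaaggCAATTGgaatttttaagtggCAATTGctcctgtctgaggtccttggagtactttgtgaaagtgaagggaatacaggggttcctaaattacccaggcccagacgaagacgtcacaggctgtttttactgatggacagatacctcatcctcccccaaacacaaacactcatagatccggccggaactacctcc
The *Epha6* window held 4 E-boxes and the *Sema3d* window 3, while none was found in the windows of *Sema5a* and *Sema5b*. Windows of *Epha6*, *Sema5a* and *Sema5b* were rich in CG dinucleotides, with 15, 17 and 19, and that of *Sema3d* had 4. RefSeq windows were matched for 45 of the 51 genes, and 29 of their 59 windows (49.2%) held an E-box, against 66.2% of the 32851 windows of all genes. The median number of CG dinucleotides was 16 in their windows and 6 in those of all genes.

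Neurons, oligodendrocyte lineage cells and vascular cells were each highest for several of these genes, as the heat map of levels shows. The highest level of 16 of the 39 genes lay in an excitatory class in both libraries, which held for 10.4% of all 12557 genes with a level. These were *Efna3*, *Efna5*, *Efnb2*, *Epha3*, *Epha4*, *Epha5*, *Epha6*, *Epha7*, *Epha10*, *Ephb2*, *Ephb6*, *Plxna1*, *Plxna4*, *Sema3e*, *Sema4f* and *Sema5a*. All 6 EphA receptors with a level were thus highest in excitatory neurons. Vascular or leptomeningeal cells were highest for 9 genes (15.9% of all genes): *Efna1*, *Ephb4*, *Plxna2*, *Plxnd1*, *Sema3a*, *Sema3c*, *Sema6a*, *Sema6b* and *Sema7a*. The oligodendrocyte lineage was highest for 6 genes (7.93% of all genes): *Efnb3*, *Ephb1*, *Plxnb3*, *Sema3d*, *Sema5b* and *Sema6d*. Astrocytes were highest for *Plxnb1* and *Sema4b* (2 genes, 4.22% of all genes), microglia for *Plxnb2* (1 gene, 8.71%), interneurons for *Sema6c* (1 gene, 3.2%) and an unnamed cluster for *Sema4a* (1 gene, 8.67%). Choroid plexus and ependyma were highest for 0 of the 39 genes, against 13.5% of all genes. For *Plxnc1*, *Sema4d* and *Sema4g* (3 genes, 27.4% of all genes) the highest group differed between the libraries.

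**Figure D1:**
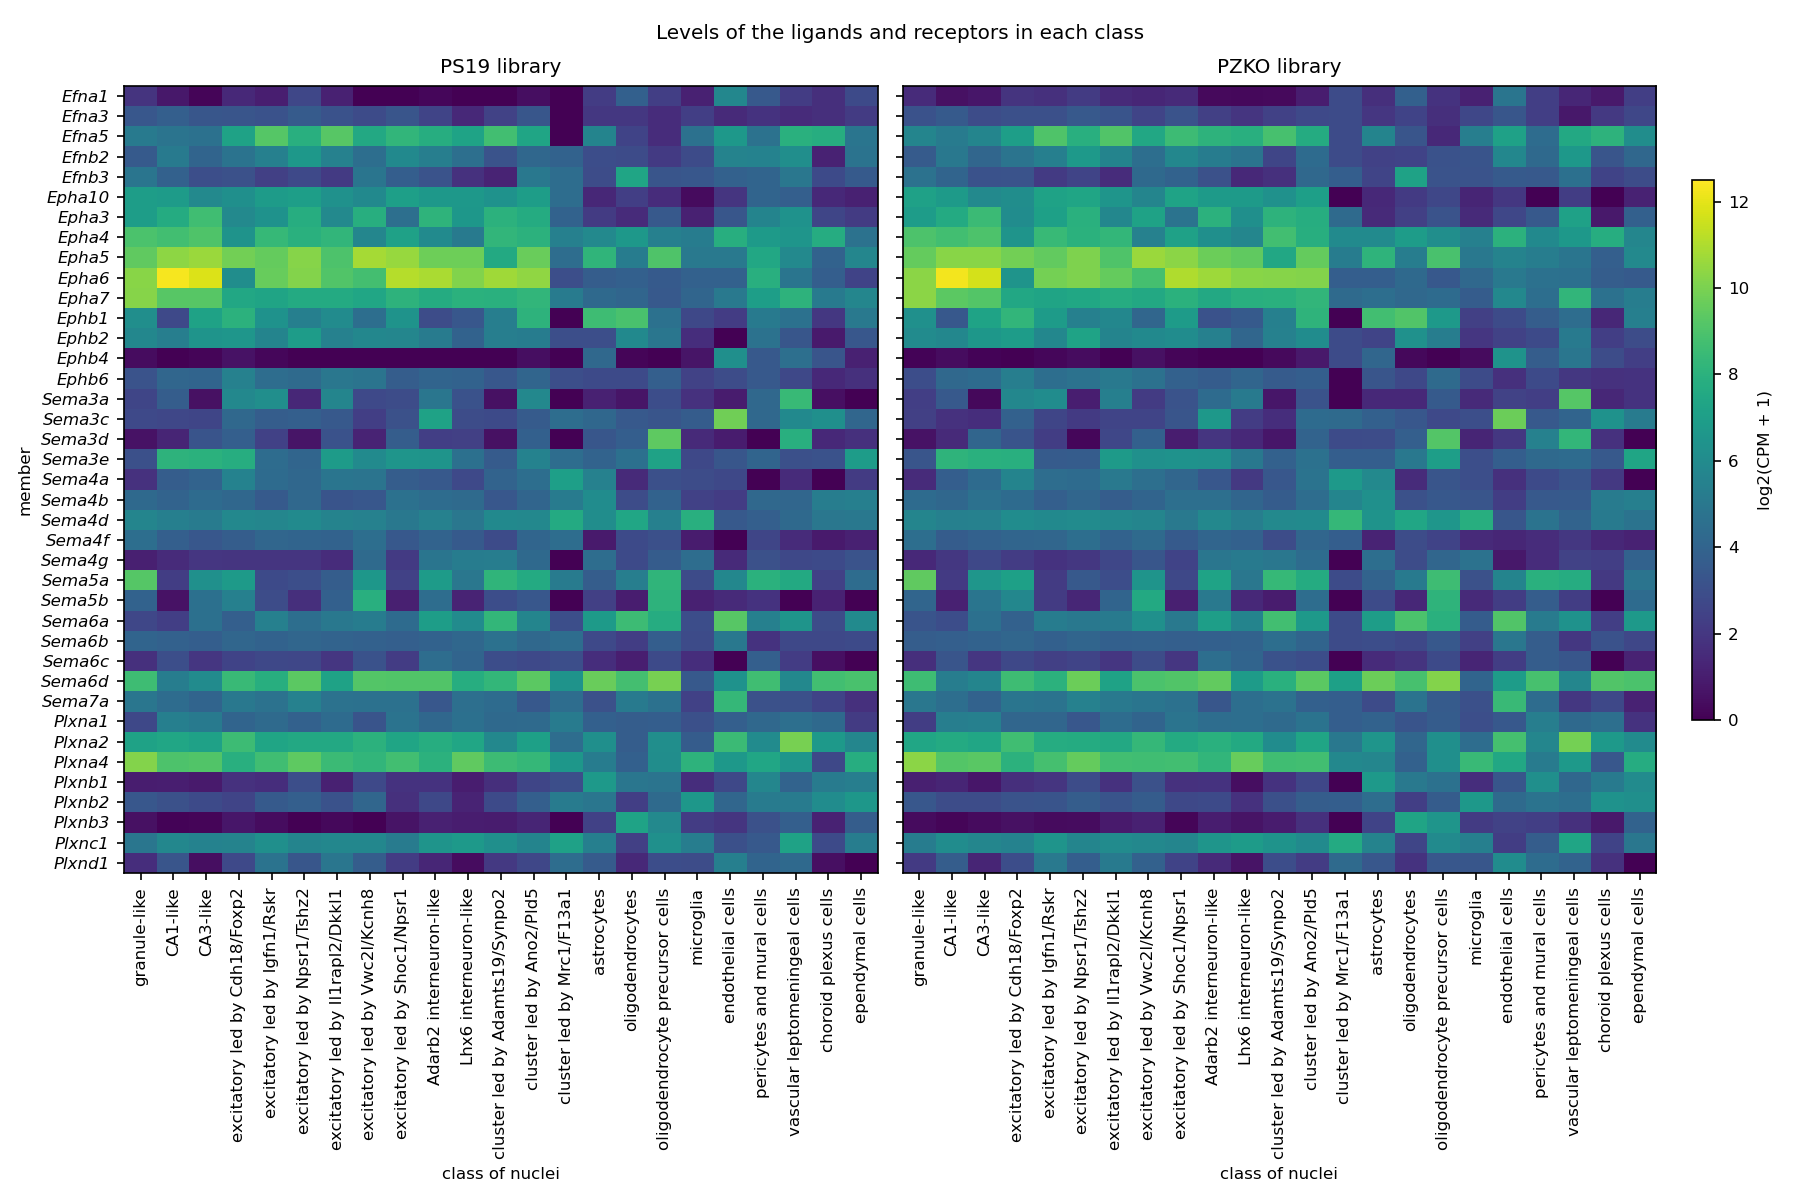
Heat maps of log2(CPM + 1) of the 39 genes with a level (vertical axis) in 23 classes (horizontal axis), for PS19 and for PZKO. Brighter colours are higher levels. The EphA receptors are brightest in the excitatory classes, while *Plxnb3*, *Sema3d* and *Sema5b* stand out in the oligodendrocyte lineage and *Sema3c* and *Sema7a* in endothelial cells.

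Among the EphA receptors, the hippocampal fields differed in *Epha6*, a receptor of ephrin-A ligands (chromosome 16, 59653483 to 60605531, minus strand, in the GENCODE M21 annotation of mm10). Its level was 5185 CPM in PS19 (5140 to 5231) and 5038 CPM in PZKO (5001 to 5075) in CA1-like neurons, and 3678 and 3305 CPM in CA3-like neurons. Granule-like neurons held 1229 and 1272 CPM, and the *Cdh18*/*Foxp2* excitatory cluster was lowest with 69.6 and 86.8 CPM. The intervals of CA1-like and CA3-like neurons were apart in both libraries. In oligodendrocytes the level was 13.3 CPM in PS19 and 18.2 CPM in PZKO, about that of astrocytes with 11.7 and 12.2 CPM.

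*Epha7*, another receptor of ephrin-A ligands (chromosome 4, 28813131 to 28967499), was led by granule-like neurons. They held 1200 CPM in PS19 and 1285 CPM in PZKO, above CA1-like neurons with 603 and 649 CPM, and the *Igfn1*/*Rskr* excitatory cluster was lowest with 157 CPM in each library. *Epha4*, which binds ephrins of both classes and is known from dendritic spines, was high in 3 hippocampal classes. CA3-like neurons had 529 CPM in PS19 and 522 CPM in PZKO, granule-like neurons 501 and 507 CPM and CA1-like neurons 416 and 414 CPM. In PZKO the intervals of CA3-like neurons (508 to 536 CPM) and granule-like neurons (494 to 520 CPM) overlapped. The lowest excitatory level of *Epha4* was 52.0 CPM in PS19 and 44.5 CPM in PZKO, in the *Vwc2l*/*Kcnh8* excitatory cluster.

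*Epha3* was led by CA3-like neurons, with 399 CPM in PS19 and 368 CPM in PZKO, and the *Shoc1*/*Npsr1* excitatory cluster was lowest with 22.8 and 26.0 CPM. *Epha5* was spread more evenly over neurons. Its highest level was in the *Vwc2l*/*Kcnh8* excitatory cluster (1794 and 1569 CPM) and its lowest excitatory level in the *Il1rapl2*/*Dkkl1* excitatory cluster (514 and 529 CPM), and oligodendrocyte precursor cells also held 535 and 487 CPM. *Epha10*, a family member without kinase activity, lay between 57.6 and 133 CPM in the excitatory classes of PS19 and between 50.9 and 162 CPM in those of PZKO.

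The ligand *Efna5* (ephrin-A5) was low in the hippocampal fields, where most EphA receptors were high. Its level was 616 CPM in PS19 and 548 CPM in PZKO in the *Il1rapl2*/*Dkkl1* excitatory cluster, with 581 and 528 CPM in the *Igfn1*/*Rskr* excitatory cluster, whose interval overlapped in both libraries. CA1-like neurons held only 27.1 and 35.9 CPM, granule-like neurons 34.9 and 51.3 CPM and CA3-like neurons 24.7 and 51.0 CPM. *Efna3*, the ephrin-A3 ligand, was low everywhere, with 12.6 and 10.8 CPM in CA1-like neurons as its highest level. *Efnb2*, the ephrin-B2 ligand known from arteries and synapses, had 98.9 and 103 CPM in the *Npsr1*/*Tshz2* excitatory cluster and 70.6 and 102 CPM in vascular leptomeningeal cells, with overlapping intervals. The EphB receptors *Ephb2* and *Ephb6* were highest in the *Npsr1*/*Tshz2* and the *Cdh18*/*Foxp2* excitatory clusters, with 120 and 152 CPM for *Ephb2* and 44.0 and 39.9 CPM for *Ephb6*.

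**Figure D2:**
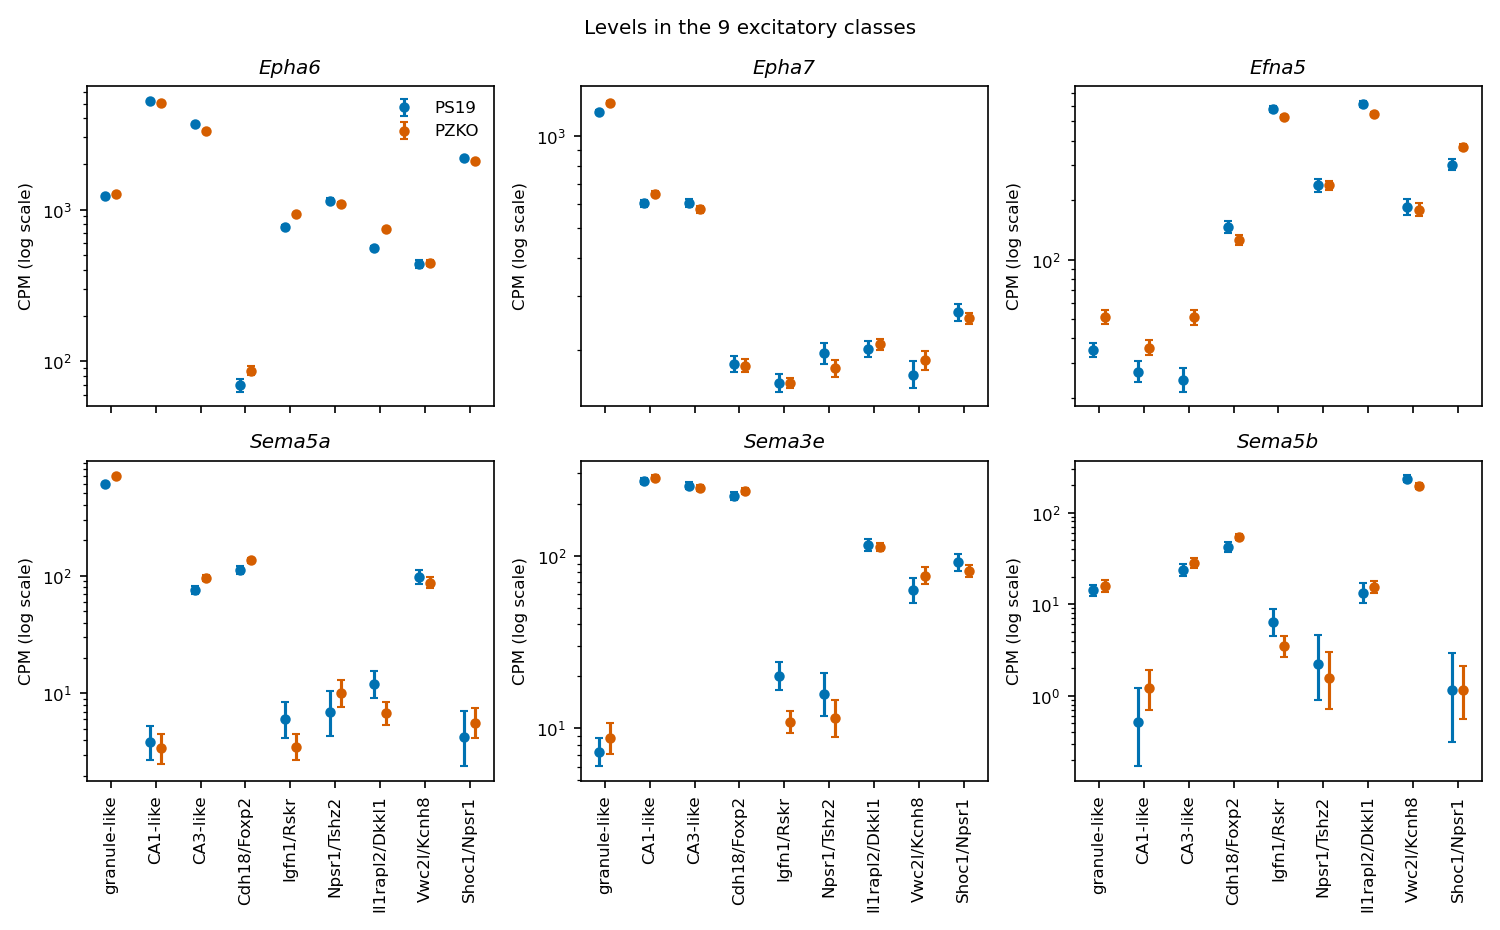
Levels in CPM (log axis) of selected genes in the 9 excitatory classes, for PS19 and PZKO, with exact Poisson 95% intervals. *Sema5a* spans from 3.86 CPM in CA1-like to 597 CPM in granule-like neurons of PS19, while *Sema3e* and *Epha6* are high in CA1-like and CA3-like neurons.

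Of the semaphorins, *Sema5a* set granule-like neurons apart from the other excitatory classes. It is a membrane-bound ligand known to limit synapse formation on granule cells (chromosome 15, 32244810 to 32696341). Granule-like neurons held 597 CPM in PS19 (585 to 610) and 699 CPM in PZKO (683 to 714). CA1-like neurons held 3.86 CPM in PS19 (37 UMIs) and 3.40 CPM in PZKO (48 UMIs), so the highest excitatory level was 155 times the lowest in PS19 and 205 times the lowest in PZKO. The excitatory level closest to granule-like neurons was 112 and 135 CPM, in the *Cdh18*/*Foxp2* excitatory cluster. Over all classes, the unnamed *Adamts19*/*Synpo2* cluster came next in PS19 (285 CPM) and oligodendrocyte precursor cells in PZKO (398 CPM).

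*Sema3e*, a secreted ligand that binds plexin-D1 directly, was lowest in granule-like neurons. Its levels were 271 and 284 CPM in CA1-like neurons and 255 and 247 CPM in CA3-like neurons, against 7.31 and 8.79 CPM in granule-like neurons. The intervals of the CA1-like and CA3-like classes overlapped in PS19 and were apart in PZKO. *Plxnd1*, its receptor, was highest in endothelial cells (41.7 and 66.7 CPM), and among excitatory classes it was highest in the *Il1rapl2*/*Dkkl1* (28.8 and 33.1 CPM) and *Igfn1*/*Rskr* (26.4 and 31.9 CPM) clusters and lowest in CA3-like neurons (0.363 and 1.45 CPM). *Sema5b*, a close relative of *Sema5a*, had 235 and 195 CPM in the *Vwc2l*/*Kcnh8* excitatory cluster and 42.2 and 54.0 CPM in the *Cdh18*/*Foxp2* cluster, the next highest excitatory level.

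*Plxna4*, a receptor shared by class 3 and class 6 semaphorins, was led by granule-like neurons with 1148 CPM in PS19 and 1303 CPM in PZKO. *Lhx6* interneuron-like nuclei came next, with 690 and 760 CPM, and microglia also held 272 and 358 CPM. *Plxna2*, known with its ligand *Sema6a* from the targeting of mossy fibres, was highest in vascular leptomeningeal cells (982 and 958 CPM) and lay between 142 and 375 CPM in the excitatory classes of PS19 and between 166 and 406 CPM in those of PZKO. *Plxna1* was low throughout, with 40.4 and 39.4 CPM in CA1-like and 33.8 and 42.3 CPM in CA3-like neurons.

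Over all excitatory classes, 32 genes had at least 100 UMIs in an excitatory class in each library. The same class was highest in both libraries for 25 of them. For 11 the highest excitatory level was at least 10 times the lowest in both libraries: *Efna5*, *Epha3*, *Epha4*, *Epha6*, *Ephb1*, *Sema3e*, *Sema4a*, *Sema5a*, *Sema5b*, *Sema6a* and *Sema6d*. These counts were not made over all genes, so they cannot be set against a background. No fold was formed where the lowest class held 3 UMIs or fewer. That left out *Sema3a*, with 71.3 CPM in the *Igfn1*/*Rskr* cluster and 0.484 CPM in CA3-like neurons of PS19 and 65.9 CPM and 0.194 CPM (2 UMIs) in PZKO, and *Plxnd1*, with 3 UMIs in CA3-like neurons of PS19 and a fold of 22.8 in PZKO.

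Interneurons were highest for 1 of the 39 genes, near the share of all genes (3.2%). *Sema6c* was highest in *Adarb2* interneuron-like nuclei, with 21.3 CPM in PS19 and 22.01 CPM in PZKO, ahead of *Lhx6* interneuron-like nuclei with 15.1 and 15.4 CPM and overlapping intervals. *Sema3c*, a secreted ligand, had 145 and 101 CPM in *Adarb2* interneuron-like nuclei but 6.54 and 3.71 CPM in *Lhx6* interneuron-like nuclei. *Plxnc1*, the receptor of *Sema7a*, lay at 89.0 and 91.9 CPM and at 108 and 114 CPM in these classes.

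The oligodendrocyte lineage was highest for both ligands and receptors, some of which were also high in other classes. In oligodendrocytes, *Plxnb3*, the plexin-B3 receptor (X chromosome, 73757090 to 73772514), had 149 CPM in PS19 and 157 CPM in PZKO. It was lower in oligodendrocyte precursor cells (57.9 and 89.7 CPM) and at most 0.701 CPM in the excitatory classes of PS19 and 1.25 CPM in those of PZKO. *Efnb3* (ephrin-B3, a ligand on myelin that restrains axon growth) stood at 159 and 147 CPM in oligodendrocytes, against 28.1 and 25.02 CPM in granule-like neurons. *Ephb1* had 473 and 555 CPM in oligodendrocytes, 391 and 423 CPM in astrocytes and 264 and 298 CPM in the *Cdh18*/*Foxp2* excitatory cluster, but 5.84 and 9.92 CPM in CA1-like neurons.

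Oligodendrocyte precursor cells were highest for *Sema3d*, a secreted ligand (672 and 572 CPM), followed by vascular leptomeningeal cells (236 and 308 CPM). They were also highest for *Sema5b* (271 and 279 CPM) and for *Sema6d* (983 and 1153 CPM). Next for *Sema5b* was the *Vwc2l*/*Kcnh8* excitatory cluster (235 and 195 CPM), with overlapping intervals in PS19. *Sema6d*, a membrane-bound ligand of plexin-A1, was high in astrocytes (806 and 825 CPM) and the *Npsr1*/*Tshz2* excitatory cluster (646 and 839 CPM) too. It was low in microglia (10.4 and 15.4 CPM). Oligodendrocytes held 0.972 and 1.62 CPM of *Sema5b* and 12.52 and 12.6 CPM of *Sema3d*, far below the levels of their precursors.

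Astrocytes were highest for *Plxnb1*, the receptor of *Sema4d*, with 104 CPM in PS19 and 105 CPM in PZKO, against at most 6.98 and 7.49 CPM in excitatory classes. Pericytes and mural cells came next with 53.2 and 74.4 CPM, and their interval overlapped that of astrocytes in PZKO. The ligand *Sema4d* had its leading levels in microglia (238 and 231 CPM) and in the unnamed *Mrc1*/*F13a1* cluster (197 and 319 CPM). That cluster carried T cell and macrophage markers. Oligodendrocytes held 167 and 165 CPM of *Sema4d*. Microglia were highest for *Plxnb2* (97.8 and 99.4 CPM), whose intervals overlapped with those of the next class in each library (ependymal cells at 95.6 CPM in PS19, choroid plexus cells at 82.0 CPM in PZKO). *Sema4b* was highest in astrocytes, with 65.7 and 76.02 CPM, and *Sema4a* in the *Mrc1*/*F13a1* cluster, with 134 and 106 CPM that rest on 19 and 17 UMIs. *Sema4g* had 38.6 CPM in the unnamed *Adamts19*/*Synpo2* cluster and 37.2 CPM in *Lhx6* interneuron-like nuclei of PS19, and 30.4 and 33.4 CPM in PZKO, with overlapping intervals. *Sema4f* stayed at or under 22.2 CPM in every class.

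In endothelial cells *Sema3c* had 895 CPM in PS19 and 819 CPM in PZKO, with at most 145 and 101 CPM in any other class. *Sema7a*, a lipid-anchored ligand, had 315 and 351 CPM there, against at most 44.1 and 43.6 CPM elsewhere. The venous receptor *Ephb4* was highest there too, with 74.0 CPM (80 UMIs) and 85.9 CPM (112 UMIs). *Efna1* also peaked in endothelial cells, with 53.7 CPM (58 UMIs) in PS19 and 27.6 CPM (36 UMIs) in PZKO. For *Sema6b* the endothelial level was 31.5 CPM (34 UMIs) and 29.9 CPM (39 UMIs). *Sema6a* had 617 and 547 CPM in endothelial cells and 376 and 493 CPM in oligodendrocytes. *Sema3a*, the founding repulsive semaphorin, was highest in vascular leptomeningeal cells, with 342 and 583 CPM.

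**Figure D3:**
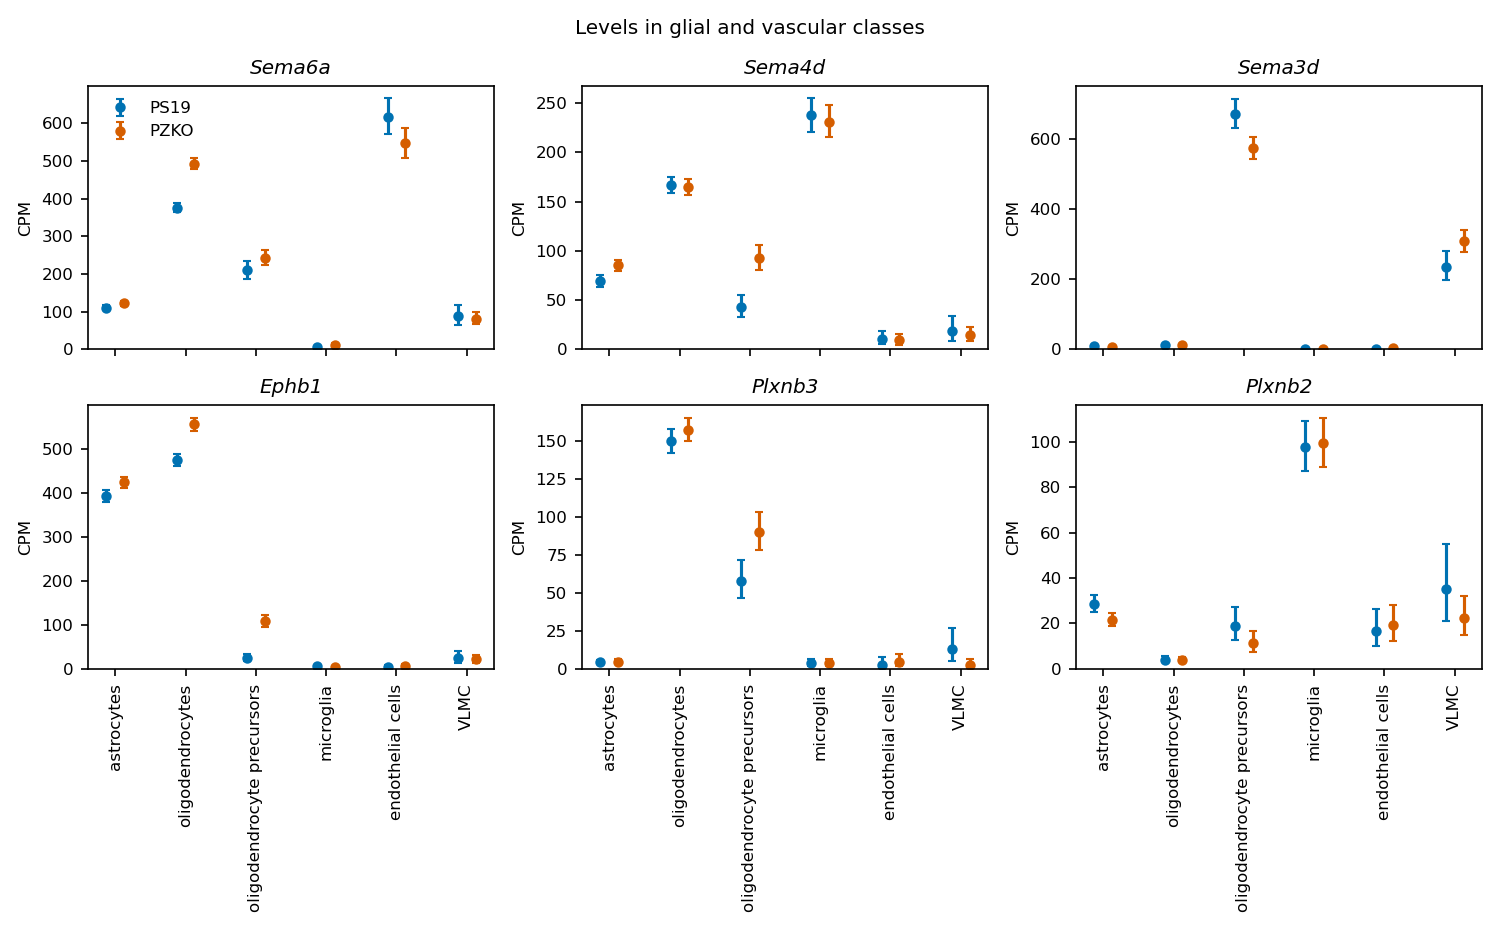
Levels in CPM (linear axis) of *Sema6a*, *Sema4d*, *Sema3d*, *Ephb1*, *Plxnb3* and *Plxnb2* in glial and vascular classes, for PS19 and PZKO, with exact Poisson 95% intervals. Among the classes shown, *Plxnb3* and *Ephb1* peak in oligodendrocytes, *Sema3d* in oligodendrocyte precursor cells, and *Sema6a* in endothelial cells.

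Between the genotypes, few of the 51 genes differed by much within a class. A gene counts as past the fold where it had at least 100 UMIs over both libraries in the class and a ratio of at least 1.5-fold either way, and 46 of the 51 genes had that many UMIs in some class. The median log2 ratio of the tested genes lay between −0.09 and 0.24 over the classes with at least 10 of them, and the median of all genes between −0.09 and 0.03. The plot of ratios by class shows every tested gene.

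In granule-like neurons 1 of 32 tested genes was past the fold, beside 5.42% of all genes, with medians of 0.04 and −0.09. CA1-like neurons had 2 of 31 (4.37% of all genes, medians 0.05 and −0.06) and CA3-like neurons 2 of 30 (4.97%, medians 0.16 and −0.02), each of them higher in PZKO. Counts for the *Cdh18*/*Foxp2* cluster were 2 of 35 (4.52%), for *Igfn1*/*Rskr* 4 of 34 (6.4%) and for *Npsr1*/*Tshz2* 0 of 24 (5.33%). The last of these counts was 1 under edgeR TMM scaling, under DESeq2 size factors and with ambient RNA subtracted, 2 under a stricter filter on nuclei and 4 without a minimum on UMIs. The *Il1rapl2*/*Dkkl1* cluster had 2 of 33 (4.61%), *Vwc2l*/*Kcnh8* 3 of 24 (5.83%) and *Shoc1*/*Npsr1* 1 of 28 (5.22%). For these 6 clusters the medians of the tested genes lay between −0.09 and 0.10 and those of all genes between −0.03 and 0.03.

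**Figure D4:**
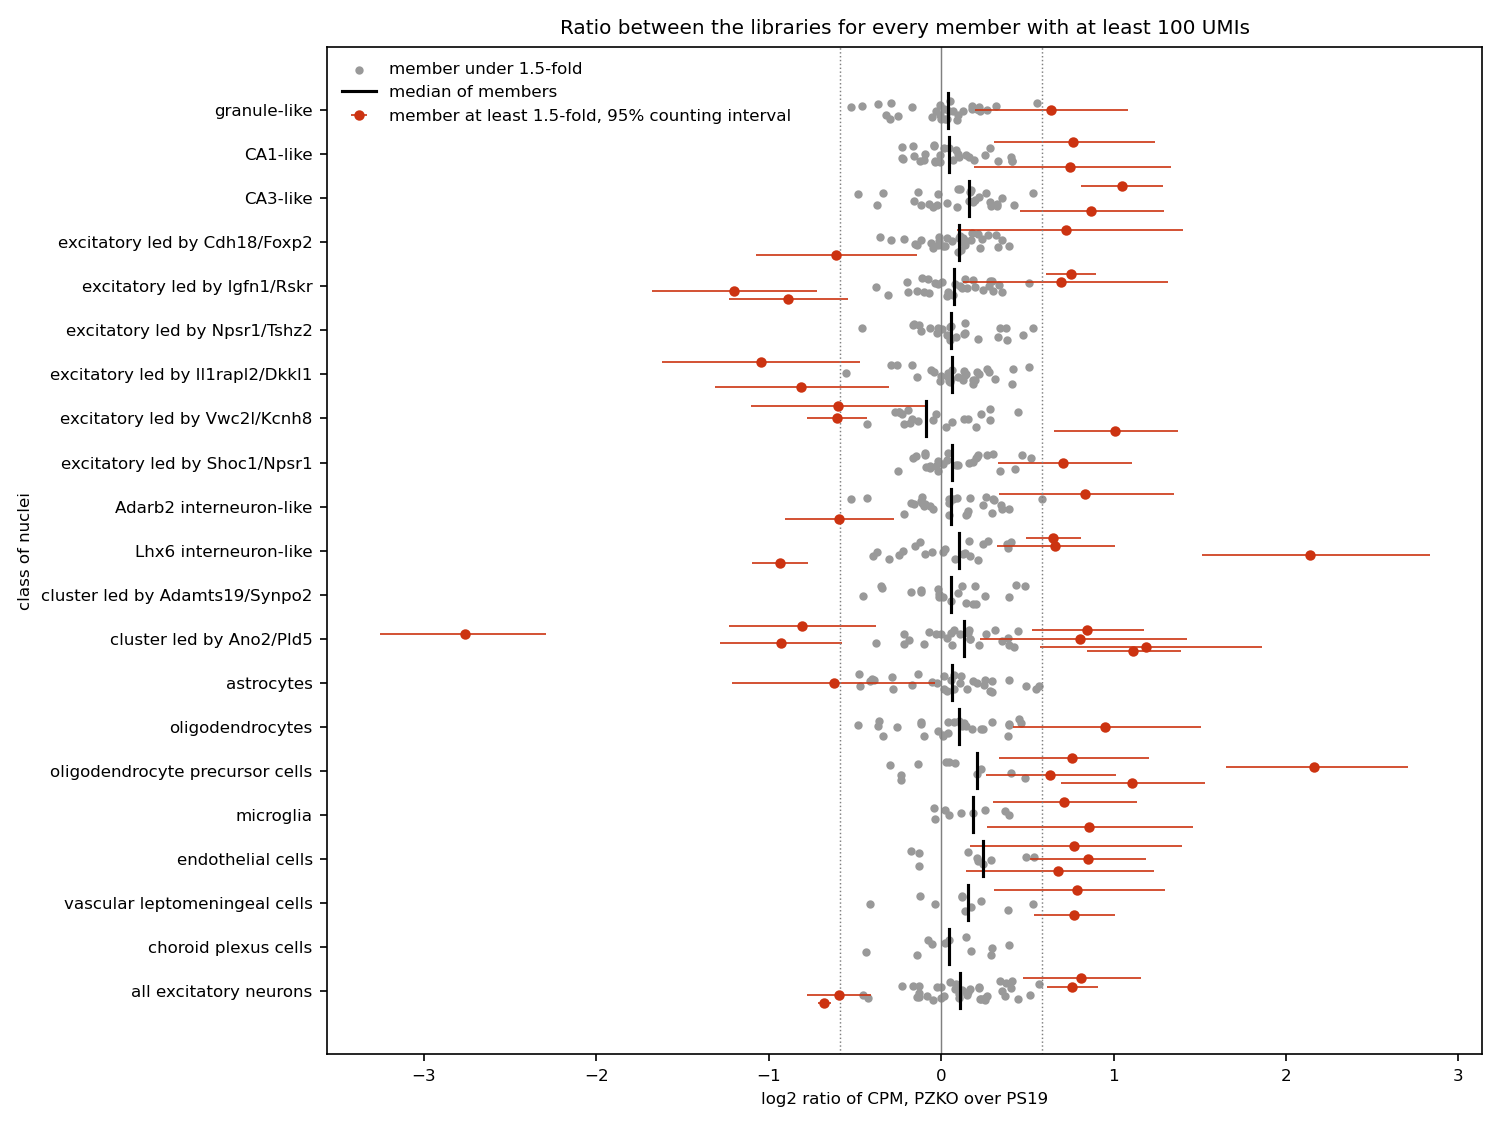
Log2 ratio of PZKO over PS19 (horizontal axis) of every gene with at least 100 UMIs over both libraries in each class (vertical axis), as points. Dotted lines mark 1.5-fold, red points lie past it and carry 95% intervals, and the black bars are medians, which lie between −0.09 and 0.24.

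The ephrin and Eph genes past the fold in excitatory subtypes were few. *Efna5* had 204 UMIs (PS19) and 527 UMIs (PZKO) in CA3-like neurons, 24.7 and 51.0 CPM, a log2 ratio of 1.05 (0.81 to 1.29). Markers of CA1 neurons summed to 1027 and 1183 CPM in this class (1.15 times the PS19 level). Those of cortical or subicular neurons summed to 2204 and 2239 CPM (1.02 times). Markers of dentate granule cells summed to 203 and 255 CPM and those of oligodendrocytes to 202 and 255 CPM (each 1.26 times). The markers of CA3 neurons summed to 2648 and 2955 CPM (1.12 times). The part of these markers in the result was not tested. *Ephb1* was higher in PZKO in CA1-like neurons, with 5.84 and 9.92 CPM (0.77, 0.31 to 1.24), where its level was among its lowest in neurons. Without removal of doublets this ratio was 0.30.

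*Epha3* differed in opposite directions in different excitatory subtypes. In the *Igfn1*/*Rskr* cluster it had 82.3 CPM in PS19 and 138 CPM in PZKO (0.75, 0.61 to 0.90), and in the *Vwc2l*/*Kcnh8* cluster 226 and 148 CPM (−0.61, −0.78 to −0.43). The value in the *Igfn1*/*Rskr* cluster was 0.55 without removal of doublets and 0.57 at a Leiden resolution of 0.5, and that in the *Vwc2l*/*Kcnh8* cluster lay between −0.70 and −0.50 over 10 alternatives, with 4 of them inside the fold. In CA3-like neurons, where *Epha3* is highest, the levels were 399 and 368 CPM. *Ephb3* in the *Igfn1*/*Rskr* cluster (5.31 and 8.61 CPM, 0.70, 0.13 to 1.31) and *Efnb3* in the *Vwc2l*/*Kcnh8* cluster (27.6 and 18.2 CPM, −0.60, −1.10 to −0.08) had intervals that reached well inside the fold.

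Class 3 semaphorins, which are secreted, were past the fold in 4 excitatory subtypes. *Sema3c* was lower in PZKO in the *Igfn1*/*Rskr* cluster, with 11.7 and 5.08 CPM (−1.20, −1.68 to −0.72), and in the *Il1rapl2*/*Dkkl1* cluster, with 10.1 and 4.91 CPM (−1.05, −1.62 to −0.47). Both values stayed past the fold under every alternative that could be run. *Sema3c* is highest in endothelial cells. Markers of endothelial cells summed to 31.2 CPM in PS19 and 14.6 CPM in PZKO in the *Il1rapl2*/*Dkkl1* cluster. In the *Igfn1*/*Rskr* cluster they summed to 16.3 and 24.2 CPM, and their part in the results was not tested. *Sema3e* was lower in the *Igfn1*/*Rskr* cluster, with 20.2 and 10.9 CPM (−0.89, −1.23 to −0.54), a value that was −0.19 without removal of doublets, −0.48 under a stricter filter and −0.35 with the compared genes left in the variable genes or at a Leiden resolution of 0.5. *Sema3d* was higher in CA3-like neurons, with 71 and 162 UMIs (8.59 and 15.7 CPM, 0.87, 0.46 to 1.29), and lower in the *Cdh18*/*Foxp2* cluster, with 12.97 and 8.51 CPM (−0.61, −1.07 to −0.14). Of 10 alternatives, 5 brought the latter inside the fold.

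In the *Il1rapl2*/*Dkkl1* cluster *Sema5a* had 60 and 79 UMIs, 11.9 and 6.80 CPM (−0.81, −1.31 to −0.30), while in granule-like neurons, with 597 and 699 CPM, it was on the other side of 0. *Plxnb2* was higher in PZKO in the *Cdh18*/*Foxp2* cluster (4.91 and 8.11 CPM, 0.73, 0.09 to 1.40). With the compared genes left in the variable genes this value was 0.44.

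*Sema6a*, a membrane-bound ligand of plexin-A2 and plexin-A4 that the study names in excitatory neurons, was followed in every subtype. In the *Vwc2l*/*Kcnh8* cluster it had 37.3 CPM in PS19 and 75.2 CPM in PZKO (1.01, 0.66 to 1.38), in the *Shoc1*/*Npsr1* cluster 19.97 and 32.7 CPM (0.71, 0.33 to 1.11), in CA1-like neurons 3.96 and 6.66 CPM (0.75, 0.19 to 1.33) and in granule-like neurons 5.35 and 8.34 CPM (0.64, 0.20 to 1.09). It was inside the fold in the *Npsr1*/*Tshz2* cluster (0.53), the *Cdh18*/*Foxp2* cluster (0.14), the *Il1rapl2*/*Dkkl1* cluster (0.13), CA3-like neurons (−0.02) and the *Igfn1*/*Rskr* cluster (−0.20). The level was thus at least 1.5-fold higher in PZKO in 4 of the 9 subtypes, and the difference between subtypes was not tested. The interval of the *Npsr1*/*Tshz2* value (0.12 to 0.96) lay above 0, and that value passed the fold under TMM scaling (0.60), DESeq2 size factors (0.61) and subtraction of ambient RNA (0.64). Over the alternatives run, the ratio lay between −1.79 and 0.28 in the *Cdh18*/*Foxp2* cluster and between −0.06 and 0.61 in the *Il1rapl2*/*Dkkl1* cluster. The ends at −1.79 and 0.61 are past the fold. In CA3-like neurons it lay between −0.46 and 0.04, and in the *Igfn1*/*Rskr* cluster between −0.42 and −0.02. *Sema6a* is also a gene of endothelial cells and oligodendrocytes. Markers of endothelial cells summed to 13.8 CPM (8 of 10 detected) in PS19 and 55.2 CPM (10 of 10 detected) in PZKO in the *Vwc2l*/*Kcnh8* cluster, with no marker at 0 in both, and the 12 markers of oligodendrocytes, all detected, to 242 and 230 CPM. In the *Shoc1*/*Npsr1* cluster the endothelial markers summed to 18.8 and 26.7 CPM, in CA1-like neurons to 13.4 and 18.1 CPM and in granule-like neurons to 19.8 and 21.8 CPM, and their part in the results was not tested. The value in CA1-like neurons was −0.13 without removal of doublets and 0.47 with the compared genes left in, and that in granule-like neurons was 0.23 without removal of doublets, 0.35 under a stricter filter and 0.49 as a mean over nuclei.

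When all excitatory nuclei were pooled, several of these genes gave another picture than within subtypes. Granule-like nuclei were 36.6% of excitatory nuclei in PS19 (1009 nuclei) and 17.1% in PZKO (513 nuclei), so the pools differ in their mix. In the pool, 4 of 44 tested genes were past the fold (7.35% of all genes, medians 0.11 and −0.07). *Sema5a* had 185 CPM in PS19 and 116 CPM in PZKO (−0.68, −0.72 to −0.64), but with the subtypes given the same weights in both libraries the value was 0.21, and 0.19 with every subtype weighted alike. Within the 5 subtypes with enough UMIs its ratio ran from −0.81 to 0.32, with a median of 0.23.

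*Efna5* had the opposite shift, from 0.52 in the pool (0.49 to 0.55) to −0.03 under common weights. *Epha7*, highest in granule-like neurons, moved from −0.43 to 0.05, and *Plxna4* from −0.13 to 0.16. *Plxnd1* (8.86 and 15.0 CPM) was 0.76 in the pool and 0.30 under common weights, and *Epha8*, a receptor with 98 and 274 UMIs in the pool, 0.81 and 0.31. *Sema3c* was lower in PZKO both in the pool (−0.59, −0.78 to −0.41) and under common weights (−0.74), with pooled values inside the fold under TMM scaling (−0.52), DESeq2 size factors (−0.51) and a stricter filter (−0.48). For *Sema6a* the pooled value of 0.57 became 0.24 under common weights and 0.40 with every subtype weighted alike, and *Epha6* went from −0.14 to −0.02.

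**Figure D5:**
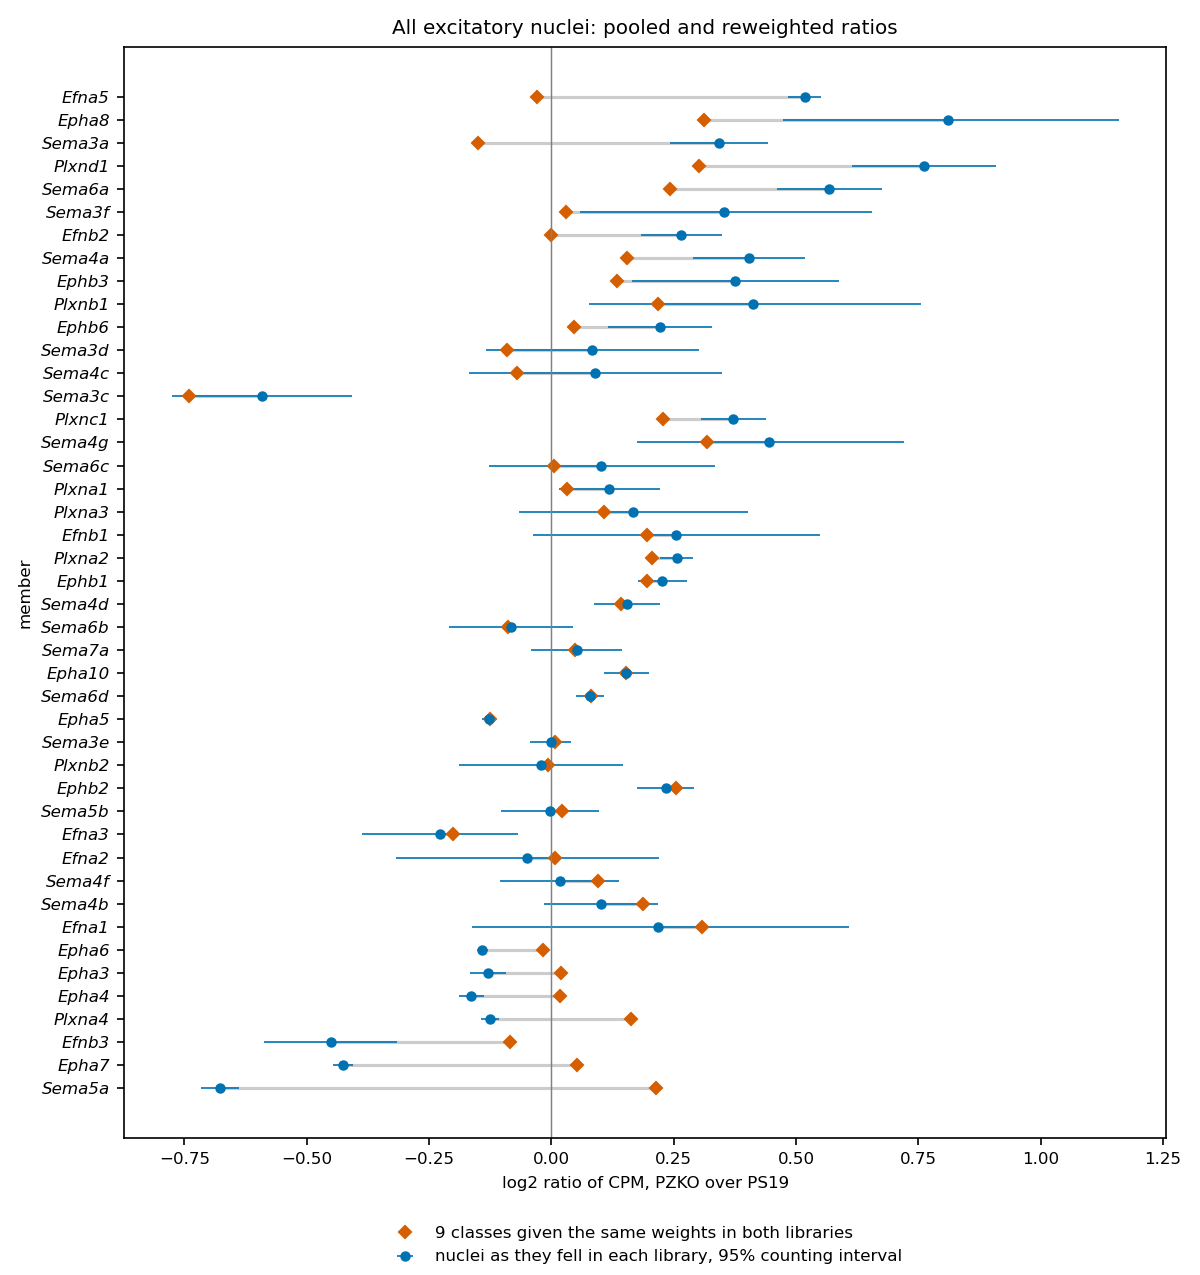
Log2 ratio of PZKO over PS19 (horizontal axis) of genes of the 4 families (vertical axis) in all excitatory neurons, pooled as they fall (blue, with 95% intervals) and with subtypes given the same weights in both libraries (orange). *Sema5a* moves from −0.68 to 0.21 and *Efna5* from 0.52 to −0.03.

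Among interneurons, *Lhx6* interneuron-like nuclei had 4 of 26 tested genes past the fold (5.19% of all genes, medians 0.10 and −0.0047) and *Adarb2* interneuron-like nuclei 2 of 32 (6.66%, medians 0.06 and −0.05). In *Lhx6* interneuron-like nuclei *Sema3a* had 23 UMIs (PS19) and 188 UMIs (PZKO), 7.91 and 34.9 CPM (2.14, 1.51 to 2.83), and *Sema6d* 223 and 117 CPM (−0.93, −1.09 to −0.77). *Efna5* (149 and 234 CPM, 0.65, 0.49 to 0.81) and *Epha4* (33.4 and 52.7 CPM, 0.66, 0.32 to 1.01) were higher in PZKO. These values depended on which nuclei formed the class: *Sema3a* was −0.37 and *Sema6d* 0.20 under a stricter filter on nuclei, and with the compared genes left in the variable genes *Sema3a* was 0.01, *Sema6d* 0.15, *Epha4* 0.17 and *Efna5* 0.32. Markers of *Sst* interneurons summed to 0.759 times and markers of *Lhx6* interneurons to 1.03 times the PS19 level, and their part was not tested.

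In *Adarb2* interneuron-like nuclei, *Plxna3*, a receptor of class 3 semaphorins, had 46 and 124 UMIs, 7.90 and 14.1 CPM (0.83, 0.33 to 1.35), and stayed past the fold in the alternatives run. *Sema3a* was lower in PZKO there (29.4 and 19.5 CPM, −0.59, −0.90 to −0.28), but it was 0.79 with the compared genes left in and 0.12 under a stricter filter. Markers of *Lhx6* interneurons summed to 1.30 times the PS19 level in this class, and their part was not tested.

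The unnamed *Ano2*/*Pld5* cluster had 7 of 32 tested genes past the fold, but so were 14.4% of all genes there (medians 0.13 and −0.0022). *Sema3a* had 154 UMIs (PS19) and 49 UMIs (PZKO), 55.7 and 8.22 CPM (−2.76, −3.26 to −2.29), and was −0.24 under a stricter filter on nuclei. *Sema3e* (−0.93) and *Efnb3* (−0.81) were lower too, while *Sema5b* (1.19), *Sema6a* (1.11), *Ephb2* (0.84) and *Sema3c* (0.81) were higher in PZKO. Each of these 6 was inside the fold under 1 or 2 alternatives. Without removal of doublets *Sema3e* was −0.02, *Sema5b* 0.50 and *Sema3c* 0.45, and *Efnb3* was inside the fold as well. At a Leiden resolution of 0.5 *Sema3e* was −0.24, *Sema6a* 0.45, *Ephb2* 0.57 and *Sema3c* 0.50, and under a stricter filter *Efnb3* was −0.47 and *Sema5b* 0.26. The unnamed *Adamts19*/*Synpo2* cluster had 0 of 21 (6.36%, medians 0.06 and −0.01), with 1 under the mean over nuclei, 1 without removal of doublets and 15 without a minimum on UMIs.

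Oligodendrocyte precursor cells had 4 of 15 tested genes past the fold, all higher in PZKO (8.79% of all genes, medians 0.21 and −0.02). *Ephb1* had 36 UMIs (PS19) and 249 UMIs (PZKO), 24.2 and 108 CPM (2.16, 1.65 to 2.71). *Sema4d* had 43.1 and 92.7 CPM (1.11, 0.70 to 1.53), *Epha4* 42.4 and 71.8 CPM (0.76, 0.33 to 1.20) and *Plxnb3* 57.9 and 89.7 CPM (0.63, 0.26 to 1.01). All 4 had higher levels in oligodendrocytes than in their precursors. In the same class, the 12 oligodendrocyte markers, each of them detected in both libraries, summed to 876 CPM in PS19 and 1752 CPM in PZKO (2.001 times), and the 5 markers of newly formed oligodendrocytes to 1015 and 1989 CPM (1.96 times). The 9 precursor markers summed to 17683 and 17632 CPM. The part of these markers in the result was not tested, and without removal of doublets the 4 ratios were 0.05, 0.09, 0.17 and 0.01.

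In oligodendrocytes 1 of 29 tested genes was past the fold (6.26% of all genes, medians 0.10 and −0.04). This was *Efna5*, with 43 and 94 UMIs, 4.64 and 8.99 CPM (0.95, 0.42 to 1.51), while the genes that lead in these cells, *Plxnb3* and *Efnb3*, lay at 149 and 157 CPM and at 159 and 147 CPM. The oligodendrocyte class joins several clusters whose mix differed between the libraries. The largest in PS19 held 1187 PS19 and 533 PZKO nuclei, and the largest in PZKO held 454 and 946. The part of this mix was not tested. Astrocytes had 1 of 32 (7.27%, medians 0.06 and −0.06), *Efnb2* with 54 and 48 UMIs, 6.67 and 4.33 CPM (−0.62, −1.21 to −0.03). The astrocyte value was −0.54 under TMM scaling and −0.35 as a mean over nuclei. The astrocyte class joins a cluster of 505 PS19 and 663 PZKO nuclei with another of 578 and 503, and their mix was not tested either.

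In microglia 2 of 11 tested genes were past the fold (5.95% of all genes, medians 0.18 and −0.02). *Plxna2* had 38 and 71 UMIs, 11.7 and 21.1 CPM (0.86, 0.27 to 1.46), and *Efna5* 79 and 134 UMIs, 24.2 and 39.8 CPM (0.72, 0.30 to 1.14). *Plxna2* was 0.57 without removal of doublets. Both had higher levels in most neuronal classes. Markers of excitatory neurons summed to 381 CPM (10 of 10 detected) in PS19 and 354 CPM (10 of 10 detected) in PZKO microglia. Those of cortical or subicular neurons summed to 484 and 497 CPM. The part of these markers in the result was not tested. The plexin that leads in microglia, *Plxnb2*, had 97.8 and 99.4 CPM.

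Endothelial cells had 3 of 13 tested genes past the fold, all higher in PZKO (5.23% of all genes, medians 0.24 and 0.01). *Plxna4* had 101 and 182 CPM (0.85, 0.52 to 1.19), *Epha7* 32.4 and 55.2 CPM (0.77, 0.17 to 1.40) and *Plxnd1*, the receptor of *Sema3e* in vessels, 41.7 and 66.7 CPM (0.68, 0.14 to 1.23). Without removal of doublets *Plxna4* was 0.52 and *Epha7* −0.01, and as a mean over nuclei *Plxnd1* was 0.28. Markers of excitatory neurons summed to 389 and 427 CPM in endothelial cells (10 of 10 detected in each library). Markers of dentate granule cells summed to 889 and 871 CPM there, and those of cortical or subicular neurons to 1825 and 1778 CPM. The part of these markers was not tested. Vascular leptomeningeal cells had 2 of 12 (13.7%, medians 0.16 and 0.02). *Sema3a* had 184 and 760 UMIs there, 342 and 583 CPM (0.77, 0.54 to 1.01), and *Epha3* 44 and 184 UMIs, 81.7 and 141 CPM (0.79, 0.31 to 1.30). Without removal of doublets both came inside the fold, *Sema3a* at 0.58 and *Epha3* at 0.37, and as a mean over nuclei *Epha3* was 0.55. The other scalings shifted all ratios of this class by 0.11 (TMM) and 0.12 (DESeq2), and markers of excitatory neurons summed to 353 and 283 CPM.

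Choroid plexus cells had 0 of 11 (6.46%, medians 0.04 and −0.02), with 6 without removal of doublets and 13 without a minimum on UMIs. Fewer than 10 genes were tested in pericytes and mural cells, in ependymal cells and in the *Mrc1*/*F13a1* cluster. In ependymal cells *Sema6a* had 62.5 and 103 CPM (0.72, 0.20 to 1.25). In pericytes and mural cells *Epha6* had 92 UMIs (PS19) and 12 UMIs (PZKO) (−3.27, −4.27 to −2.40), but 2.08 under a stricter filter and 1.68 without removal of doublets. *Epha6* is a gene of neurons, and markers of excitatory neurons summed to 633 CPM in PS19 and 412 CPM in PZKO in that class, all 10 of them detected in both. Markers of CA1 neurons summed to 506 and 549 CPM there, and those of cortical or subicular neurons to 651 and 700 CPM. The part of these markers was not tested.

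Partners and effectors of the same pathways were counted beside the 7.35% of all genes that were past the fold in all excitatory neurons. In that pool 0 of the 9 tested co-receptors and partners of semaphorins (such as *Nrp1* and *Nrp2*) were past it, with a median of 0.08, and 0 of the 18 tested netrin and Slit guidance genes, with a median of 0.06. Of 19 tested semaphorin and plexin effectors 2 were higher (median 0.10): *Farp1*, a plexin-A partner that acts on Rac (95.03 and 163 CPM, 0.78, 0.73 to 0.82), and *Rnd1*, a plexin-binding GTPase (2.38 and 4.29 CPM, 0.85, 0.57 to 1.14). Of 24 Eph and ephrin effectors 1 was higher and 2 were lower (median 0.05): *Vav2* (1.32 and 2.73 CPM, 1.05, 0.68 to 1.44), *Vav3* (92.7 and 61.7 CPM, −0.59, −0.64 to −0.53) and the phosphatase gene *Ptpro* (48.6 and 31.1 CPM, −0.64, −0.72 to −0.57). With the excitatory subtypes given the same weights in both libraries, only *Vav2* of these 5 genes stayed past the fold (0.80). *Vav3* was then at 0.08 and *Ptpro* at 0.13, on the other side of 0, and *Farp1* was at 0.33 and *Rnd1* at 0.50.

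Within the hippocampal fields, the effector *Farp1* was higher in PZKO in granule-like neurons (13.7 and 25.7 CPM, 0.91, 0.65 to 1.17) and in CA3-like neurons (13.9 and 21.3 CPM, 0.61, 0.28 to 0.95). Of the tested semaphorin and plexin effectors, 1 of 17 was past the fold in granule-like neurons, beside 5.42% of all genes. Counts were 2 of 17 in CA1-like (4.37%) and 2 of 16 in CA3-like neurons (4.97%), and all of these were higher in PZKO. *Tiam1*, a Rac exchange factor recruited by EphB receptors, was higher in CA1-like (32.2 and 56.0 CPM, 0.80, 0.61 to 0.99) and CA3-like neurons (19.5 and 32.4 CPM, 0.73, 0.46 to 1.02). It was the only 1 past the fold of 21 tested Eph and ephrin effectors in CA1-like and of 20 in CA3-like neurons. In granule-like neurons 0 of 22 were past it. Among 15 tested netrin and Slit guidance genes in granule-like neurons, 1 was past the fold and lower in PZKO (−0.65). Of the guidance genes, *Unc5d* (24.7 and 80.2 CPM, 1.70, 1.495 to 1.91) and *Slit2* (70.8 and 118 CPM, 0.74, 0.61 to 0.87) were the 2 past the fold among 14 tested in CA1-like neurons, beside 4.37% of all genes. Of these genes 0 of 14 were past it in CA3-like neurons (4.97%) and 0 of 11 in the *Vwc2l*/*Kcnh8* cluster (5.83%). In the *Shoc1*/*Npsr1* cluster 4 of 13 were higher in PZKO (5.22%). In the *Igfn1*/*Rskr* cluster 2 of 16 were higher and 1 was lower (6.4%), and in *Npsr1*/*Tshz2* 2 of 14 were lower (5.33%). *Adarb2* interneuron-like nuclei had 3 of 15 higher (6.66%). In oligodendrocyte precursor cells, where *Ephb1* and *Sema4d* were higher and 8.79% of all genes were past the fold, 2 of 12 semaphorin and plexin effectors were higher, *Fyn*, a kinase of myelinating cells (373 and 857 CPM, 1.20, 1.06 to 1.34), and *Mical3* (155 and 255 CPM, 0.72, 0.50 to 0.94). Of 21 Eph and ephrin effectors there, *Chn2* was higher (116 and 353 CPM, 1.61, 1.37 to 1.85) and *Pick1* lower (44.4 and 28.3 CPM, −0.65, −1.17 to −0.13). In this class markers of oligodendrocytes summed to 2.001 times and those of newly formed oligodendrocytes to 1.96 times the PS19 level, and their part was not tested. In microglia 2 of 3 tested netrin and Slit guidance genes were past the fold, beside 5.95% of all genes, the netrin receptor *Unc5c* (13.5 and 27.0 CPM, 1.002, 0.47 to 1.56) and the Slit receptor *Robo2* (11.0 and 19.9 CPM, 0.85, 0.24 to 1.48). Markers of excitatory neurons summed to 381 and 354 CPM in microglia and those of cortical or subicular neurons to 484 and 497 CPM. Their part was not tested. For the listed genes within single classes, values under the alternatives are not given.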

How the data were processed

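The authors deposited raw UMI counts per gene and nucleus, as whole numbers, which Cell Ranger made on the mm10 reference. The submitters' processing notes give Cell Ranger 7.0.1, while the header of both matrices gives 8.0.1. Of the steps in the methods, SoupX correction, filtering of nuclei and DoubletFinder had not been applied to them. Labels give 1 library per genotype and no label for single animals, although the methods also state that animals were processed separately.

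Nuclei with at least 600 UMIs, 300 genes and at most 5% mitochondrial UMIs were kept (10466 PS19, 10128 PZKO), and the highest Scrublet scores were removed at 0.8% per 1000 nuclei (876 and 821 nuclei). The kept nuclei held 100729375 and 151995959 UMIs. Clustering used scanpy 1.11.5 (2000 variable genes, 30 components, 20 neighbours) and leidenalg 0.10.2 at a resolution of 1, with the variable genes holding none of the compared genes. Both libraries were clustered together without a step that integrates them, while the methods of the study used harmony. Whether the library affected the placing of nuclei in classes was not tested. Names of clusters rest on at least 3 detected markers and on thresholds chosen once clusters were known, and a *Ttr*-led cluster of low UMI counts was left out. UMIs were summed per class and scaled by their total. Intervals came from scipy 1.17.1, and no test between genotypes was made. A gene was past the fold at 1.5-fold with at least 100 UMIs over both libraries in the class. Named were the members past the fold, at most 8 per class, *Sema6a* in every excitatory class, the members highest in a class and, from the lists, the 2 most abundant genes past the fold on each side. The members, lists and rules were chosen with earlier results of these data known.

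Alternatives were edgeR 4.0.16 TMM and DESeq2 1.42.0 size factors (R 4.3.3), the mean over nuclei, no minimum on UMIs, a minimum of 50 UMIs in each library, subtraction of an ambient profile, a stricter filter (1000 UMIs, 500 genes, 1% mitochondrial), no removal of doublets, the compared genes left in the variable genes, a Leiden resolution of 0.5, and 2 weightings of excitatory subtypes. In counts simulated at the depth of granule-like neurons (11478 genes), the interval held the true ratio for 95.7% of genes changed by 1 on the log2 scale and 95.3% of those changed by 2. These shares were 94.6% and 93.5% in CA1-like neurons (11105 genes), 92.8% and 92.2% in oligodendrocytes (10725 genes) and 96.2% and 95.8% in microglia (8499 genes). The simulated counts were Poisson draws, the model that the intervals assume. The shares therefore check the computation only and cannot speak to spread between nuclei or mice.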

Additional observations from a re-analysis of the deposited data

Results flagged for a closer look

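For 4 genes, values past the 1.5-fold limit pointed in opposite directions in different classes. How many of all genes do so was not counted, so this number cannot be set against a background. Whether the classes differ was not tested, since each class has 1 library per genotype. The log2 ratio of *Epha3* was 0.75 in the *Igfn1*/*Rskr* excitatory cluster and 0.79 in vascular leptomeningeal cells, against −0.61 in the *Vwc2l*/*Kcnh8* excitatory cluster. *Sema3a* was at 2.14 in *Lhx6* interneuron-like nuclei and 0.77 in vascular leptomeningeal cells, against −0.59 in *Adarb2* interneuron-like nuclei and −2.76 in the *Ano2*/*Pld5* cluster. Of these, the interneuron values turned sign under some alternatives, and the value in the *Ano2*/*Pld5* cluster was −0.24 under a stricter filter. *Sema3c* was at 0.81 in the *Ano2*/*Pld5* cluster, against −1.20 in the *Igfn1*/*Rskr* and −1.05 in the *Il1rapl2*/*Dkkl1* excitatory clusters. *Sema3d* was at 0.87 in CA3-like neurons, against −0.61 in the *Cdh18*/*Foxp2* excitatory cluster, where 5 of 10 alternatives brought it inside the fold. Several of the other values also came inside the fold under alternatives, as given above.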

How the results depend on the processing

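With 1 library per genotype no replicate could be left out, and the intervals cover counting error only. No paired analysis was possible because each genotype has 1 library. The cause was not tested for any of the changes below. Of the class counts, class medians and counts of highest groups under the alternatives, 379 stayed close to the reported value and 83 moved. For single genes 842 stayed close, 132 moved and 12 turned direction. The *Il1rapl2*/*Dkkl1* cluster was not found without removal of doublets, with the compared genes left in or at a Leiden resolution of 0.5, nor were the *Lhx6* and *Adamts19*/*Synpo2* clusters at that resolution.

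Among values past the fold, directions turned under a stricter filter for *Sema3a* in *Adarb2* (0.12) and *Lhx6* interneuron-like nuclei (−0.37), *Sema6d* in *Lhx6* interneuron-like nuclei (0.20) and *Epha6* in pericytes (2.08). Without removal of doublets they turned for *Sema6a* in CA1-like neurons (−0.13), *Epha7* in endothelial cells (−0.0053) and *Epha6* in pericytes (1.68), with the compared genes left in for *Sema3a* in *Adarb2* (0.79) and *Sema6d* in *Lhx6* interneuron-like nuclei (0.15), at a Leiden resolution of 0.5 for *Sema3a* in *Adarb2* interneuron-like nuclei (0.19), and under both weightings for pooled *Sema5a* (0.19 and 0.21).

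The shares of all genes given above belong to the reported values only. No such share is given for the counts under alternatives, here or above, so those counts cannot be set against a background. Without a minimum on UMIs, genes with very few UMIs are counted too. Counts of genes past the fold were, under TMM and equally under DESeq2, 2 in granule-like, 1 in *Cdh18*/*Foxp2*, 1 in *Npsr1*/*Tshz2*, 1 in *Vwc2l*/*Kcnh8* and 2 in astrocytes. As a mean over nuclei they were 0 in granule-like, 1 in *Cdh18*/*Foxp2*, 1 in *Adamts19*/*Synpo2* and 2 in oligodendrocyte precursors. Without a minimum on UMIs they were 6 in granule-like, 8 in CA1-like, 10 in CA3-like, 6 in *Cdh18*/*Foxp2*, 13 in *Igfn1*/*Rskr*, 4 in *Npsr1*/*Tshz2*, 11 in *Il1rapl2*/*Dkkl1*, 10 in *Vwc2l*/*Kcnh8*, 5 in *Shoc1*/*Npsr1*, 7 in *Adarb2*, 15 in *Lhx6*, 15 in *Adamts19*/*Synpo2*, 14 in *Ano2*/*Pld5*, 5 in astrocytes, 13 in oligodendrocytes, 18 in precursors, 15 in microglia, 21 in endothelial, 23 in leptomeningeal (median −0.23) and 13 in choroid plexus cells. With 50 UMIs in each library they were 1 in CA1-like, 1 in *Cdh18*/*Foxp2*, 1 in *Adarb2*, 4 in *Ano2*/*Pld5*, 0 in astrocytes, 0 in oligodendrocytes and 1 each in microglia, endothelial and leptomeningeal cells.

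With ambient RNA subtracted they were 2 in granule-like, 1 in CA1-like, 1 in *Npsr1*/*Tshz2*, 4 each in *Adarb2*, astrocytes, oligodendrocytes and leptomeningeal cells, and 1 each in microglia and endothelial cells. The stricter filter gave 0 in *Cdh18*/*Foxp2*, 2 in *Npsr1*/*Tshz2*, 1 in *Vwc2l*/*Kcnh8*, 3 in *Shoc1*/*Npsr1*, 1 in *Lhx6*, 0 in oligodendrocytes and 1 each in microglia and endothelial cells. Without removal of doublets there were 1 in *Adamts19*/*Synpo2*, 2 in astrocytes, 0 in precursors and 6 in choroid plexus cells, and the endothelial median was −0.0053. Leaving the compared genes in gave 1 in CA1-like, 0 in *Cdh18*/*Foxp2*, 1 in *Adarb2* and 0 in *Lhx6*, a resolution of 0.5 gave 3 in *Ano2*/*Pld5*, and both weightings gave 1 in pooled excitatory neurons. Genes highest in interneurons were 0 under the stricter filter, 0 with the compared genes left in and 2 at a resolution of 0.5. Those highest in unnamed clusters were 0 under the stricter filter, 0 without removal of doublets, 2 with the genes left in and 0 at a resolution of 0.5. Those highest in microglia were 2 under each of the stricter filter, no removal of doublets and a resolution of 0.5.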
